A study of Mus musculus with 6 samples.

Results

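Expression of 10 protease inhibitor genes was followed in blood neutrophils sorted by their surface Ly6C. They were chosen by name and comprise 5 genes of the stefin A cluster (Stfa1, Stfa2, Stfa2l1, Stfa3 and BC100530), 2 cystatin genes that lie elsewhere (Cstb and Cst3) and 3 WFDC genes (Slpi, Wfdc17 and Wfdc21). They are 10 of the 35853 genes to which a transcript was assigned, and all 10 were among the 11406 genes kept for testing after a filter on low counts. The cells came from wild-type BALB/C mice that carried orthotopic tumours of 4T1, a mouse mammary carcinoma line, and blood was taken at week 4. After lysis of red cells, Ly6G+ cells were split by sorting on Ly6C, and 3 libraries represent the high and 3 the low fraction. Both groups thus share the strain, the tumour and the Ly6G gate, no tumour-free mice are part of the comparison, and neither the number of mice nor whether libraries were pools is stated. The p-values below therefore rest on variation from library to library, which may be no more than technical.

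Stefins are small cytosolic proteins that block papain-like cysteine proteases, above all the lysosomal cathepsins B, L, H and S. Humans have a single stefin A gene, whereas mice carry a cluster of closely related copies. Stefin B, encoded by Cstb, is the widely expressed relative, and cystatin C, encoded by Cst3, is the secreted one. WFDC proteins share the disulfide-bonded core of whey acidic protein, and the best known, Slpi, blocks the neutrophil serine proteases elastase and cathepsin G. Neutrophils store these serine proteases in their granules.

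The stefin A cluster lies on chromosome 16, and in the GENCODE annotation (build GRCm38) its members span Stfa2l1 at chr16:36156811-36161953, Stfa1 at chr16:36276951-36285373, BC100530 at chr16:36359382-36367748, Stfa2 at chr16:36403992-36408457 and Stfa3 at chr16:36450537-36455392. All 5 are annotated as protein-coding. The coding sequences show how close the copies are, which decides how well short reads can be told apart. Bases 1 to 300 of the coding sequence are given for Stfa2, Stfa2l1 and Stfa3, whose coding sequences have 312 bases, and all 294 bases for BC100530 and Stfa1. Capitals mark bases that differ from the closest member, which is Stfa2l1 for Stfa2, Stfa2 for Stfa2l1, Stfa1 for BC100530 and BC100530 for Stfa1. Stfa3 is set against Stfa2.
Stfa2: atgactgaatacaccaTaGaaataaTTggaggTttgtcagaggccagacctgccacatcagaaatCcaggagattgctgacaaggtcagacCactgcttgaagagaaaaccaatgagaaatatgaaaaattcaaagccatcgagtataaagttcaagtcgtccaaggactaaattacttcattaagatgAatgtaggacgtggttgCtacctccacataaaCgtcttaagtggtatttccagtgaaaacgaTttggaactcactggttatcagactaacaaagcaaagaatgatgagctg
Stfa2l1: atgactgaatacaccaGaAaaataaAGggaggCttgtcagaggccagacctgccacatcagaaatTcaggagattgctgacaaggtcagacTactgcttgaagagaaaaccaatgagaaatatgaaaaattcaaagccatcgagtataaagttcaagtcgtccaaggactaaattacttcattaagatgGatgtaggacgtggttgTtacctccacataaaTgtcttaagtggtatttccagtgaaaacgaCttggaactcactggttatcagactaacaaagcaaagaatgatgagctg
BC100530: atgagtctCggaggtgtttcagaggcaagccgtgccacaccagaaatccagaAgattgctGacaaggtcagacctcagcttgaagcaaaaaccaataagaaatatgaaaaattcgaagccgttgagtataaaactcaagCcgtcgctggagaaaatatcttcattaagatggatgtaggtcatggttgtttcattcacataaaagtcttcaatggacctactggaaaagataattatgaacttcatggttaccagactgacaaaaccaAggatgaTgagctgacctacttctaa
Stfa1: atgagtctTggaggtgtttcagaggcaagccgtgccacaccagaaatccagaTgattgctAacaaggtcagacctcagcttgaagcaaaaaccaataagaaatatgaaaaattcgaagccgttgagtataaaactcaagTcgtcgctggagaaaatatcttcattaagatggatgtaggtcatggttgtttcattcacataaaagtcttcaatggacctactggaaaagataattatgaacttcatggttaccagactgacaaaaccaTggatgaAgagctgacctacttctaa
Stfa3: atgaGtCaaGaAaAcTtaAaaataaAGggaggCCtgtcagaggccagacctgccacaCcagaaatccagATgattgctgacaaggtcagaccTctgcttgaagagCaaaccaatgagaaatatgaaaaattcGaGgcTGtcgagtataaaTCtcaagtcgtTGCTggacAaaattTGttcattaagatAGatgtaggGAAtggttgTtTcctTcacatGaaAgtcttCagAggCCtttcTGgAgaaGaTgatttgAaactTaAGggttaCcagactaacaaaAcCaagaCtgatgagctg

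Stfa2 and Stfa2l1 differed at 11 of 312 coding bases (96.5% identity), with an identical run of up to 97 bases. BC100530 and Stfa1 differed at 6 of 294 coding bases (98.0% identity), with an identical run of up to 128 bases. Both runs are longer than a read of 75 cycles. Stfa3 differed from Stfa2 at 59 of its 312 coding bases (81.1% identity), and 56 of these lie in the stretch printed. The authors' counter, kallisto, splits a read that matches more than 1 transcript, so shared words of 31 bases were counted in the annotated transcripts. Stfa2 shared 114 such words with Stfa2l1, which is 25.9% of the words of Stfa2 and 29.3% of those of Stfa2l1. Stfa1 shared 277 words with BC100530, or 39.0% of its own and 35.1% of those of BC100530. No word of Stfa3, Cstb, Cst3, Slpi, Wfdc17 or Wfdc21 occurred in a transcript of another gene, so their counts did not rest on the division between copies. Stfa1 and BC100530 also shared 140 and 150 words with BC117090, another gene of the cluster, and 44 words of Stfa2 and 59 of Stfa2l1 occurred in other genes. In all, 56.2% of the words of Stfa1, 66.7% of Stfa2, 58.4% of Stfa2l1 and 57.0% of BC100530 were unique to the gene. The values of these 4 genes taken singly depend on how shared reads were divided, to a degree that these word shares do not measure. Their sum depends less on the division among members, but still on that with genes outside the sum.

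The upstream sequence was read from RefSeq promoter windows (build GRCm38.p6, 250 bases before to 50 after the start), which held 8 of the 10 genes. BC100530 is listed there as Cstdc5. The longest run of bases that all 5 cluster members had in common in the 250 bases before the start was ATTATTGGCACAGAG. On either strand it occurred before 5 of 27025 genes (0.0185%), which are those same 5. In the last 100 bases before the start the longest common run was ACCTTTAAAACC, found before 10 of 27025 genes (0.037%). The 10 were the 5 members, Gm5483 and Gm5416 of the same cluster (listed there as Cstdc4 and Csta3), Cstdc3, Gm39539 and Gm7260. Neither run occurred in the windows of Slpi, Wfdc17 and Cst3, nor in those of Csta1 and 2010005H15Rik of the same cluster. The first run was also absent before Gm5483 and Gm5416. The pair of runs do not overlap each other. No window was found for BC117090 of the same cluster. The windows below show the second run in capitals. A match describes the letters only, and the runs were picked from the members themselves.
Stfa1, chr16:36277106-36277135, plus strand: ctttcggatACCTTTAAAACCctgagtctc
Stfa2, chr16:36408375-36408404, minus strand: cttacagaaACCTTTAAAACCctgagtctc
Stfa2l1, chr16:36156766-36156795, plus strand: tttacagaaACCTTTAAAACCctgagtctc
Stfa3, chr16:36455406-36455435, minus strand: ttacagataACCTTTAAAACCccgagtctc
BC100530, chr16:36367562-36367591, minus strand: tttacagatACCTTTAAAACCccgagtctc

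The run ended 21, 20, 24, 22 and 0 bases before the RefSeq start of Stfa1, Stfa2, Stfa2l1, Stfa3 and BC100530. GENCODE places the gene start of Stfa1, Stfa2 and BC100530 farther upstream, so that these windows fall inside the genes there. The first run lay farther from the start, between 207 and 232 bases before it, and stands in capitals in the next windows.
Stfa1, chr16:36276899-36276928, plus strand: tgatggcATTATTGGCACAGAGactgcagg
Stfa2, chr16:36408584-36408613, minus strand: agtaacATTATTGGCACAGAGattgcaggg
Stfa2l1, chr16:36156561-36156590, plus strand: aacATTATTGGCACAGAGattgcagagagg
Stfa3, chr16:36455613-36455642, minus strand: atgatATTATTGGCACAGAGcgtgcaggaa
BC100530, chr16:36367770-36367799, minus strand: tgatggcATTATTGGCACAGAGactgcagg

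Before the results, 1 library has to be named. The estimated counts summed to between 17192372 and 20973623 per library, and Ly6C-low replicate 3 had the lowest sum and the largest TMM scaling factor (1.10, against 0.955 to 1.01 in the other 5). It also stood apart in the stefin A genes, so the differences of the 10 genes, the list medians and the genes named from the lists are given with and without it. The sort itself was visible in the transcripts: Ly6c2 lay between 124.8 and 165 CPM (counts normalised to library size and scaled by TMM, which sets libraries against each other by the bulk of their genes) in the Ly6C-high libraries and between 14.6 and 24.4 in the Ly6C-low libraries. Ly6c1 lay between 41.8 and 56.6 CPM against 4.09 to 7.70 CPM. The neutrophil marker S100a9 lay between 168401 and 199913 TPM (the deposited unit, which corrects for transcript length) in all 6 libraries.

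Stefin A transcripts were among the abundant transcripts of these cells, and no stefin A gene passed the test between the Ly6C groups. In 5 of the 6 libraries the 5 cluster members summed to between 2988 and 3757 CPM, and in Ly6C-low replicate 3 they summed to 11084 CPM, 2.95 times the highest of the others. The 2 cystatin genes outside the cluster and the 3 WFDC genes were not higher in that library than in all others. None of the 10 genes passed an adjusted p of 0.05 between the groups in edgeR's quasi-likelihood test with Benjamini-Hochberg adjustment, where 4 of 11406 genes (0.0351%) passed, 2 higher and 2 lower in Ly6C-high cells. At an unadjusted p of 0.05 the count was 0 of 10 members and 1626 of all genes (14.3%). Limma voom called 0 of the 10, and the DESeq2 Wald test called 0 of the 9 to which it gave an adjusted p, which Stfa1 lacked. With library size alone in place of TMM, 2 genes were called higher and 6 lower, none of them a member, and the median of all genes moved from -0.0045 to -0.11 on the log2 scale.

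BC100530, the stefin A member with the most counts, had 1369.8, 1107 and 1240.1 CPM in Ly6C-high replicates 1, 2 and 3 and 1341, 1186 and 4133 CPM in Ly6C-low replicates 1, 2 and 3. The first 2 Ly6C-low libraries lay inside the range of the Ly6C-high libraries, and the third lay far above. The means were 1239 ± 132 CPM in Ly6C-high and 2220.0 ± 1659 CPM in Ly6C-low cells (SD, n = 3 each). On the log2 scale the difference, Ly6C-high over Ly6C-low, was -0.84 ± 0.57 (SE) with a 95% interval of -2.35 to 0.67 and an adjusted p of 0.577 in edgeR. Without Ly6C-low replicate 3 it was -0.027 ± 0.096, with an interval of -0.23 to 0.18.

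Stfa2 had 969.7, 819 and 907 CPM in the Ly6C-high and 1049, 907 and 2988 CPM in the Ly6C-low libraries. The second Ly6C-low library lay inside the Ly6C-high range, the first a little above it and the third far above. The log2 difference was -0.87 ± 0.53 (edgeR adjusted p = 0.539), and -0.12 ± 0.092 without that library. Stfa2l1, its closest copy, had 799, 679.6 and 788 CPM in the Ly6C-high and 916, 857 and 2388 CPM in the Ly6C-low libraries. Here every Ly6C-low library lay above every Ly6C-high library, a pattern that 1238 of all genes tested (10.9%) showed. The log2 difference was -0.88 ± 0.46 (edgeR adjusted p = 0.475). Without Ly6C-low replicate 3 it was -0.23 ± 0.088, with a 95% interval of -0.42 to -0.041 and an adjusted p of 0.318, and Stfa2l1 was then the only one of the 10 genes at an unadjusted p under 0.05, where 1366 of 11639 genes (11.7%) were. In that fit 22 genes (0.189%) passed the adjusted threshold and 0 of the 10 members did.

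Stfa3, the member whose transcript shares no word with another gene, had 437, 379 and 433 CPM in the Ly6C-high and 447, 398 and 1569 CPM in the Ly6C-low libraries. Its value in Ly6C-low replicate 3 was 3.51 times the highest of the other 5, the largest such ratio among the 7261 genes with a mean of at least 5 CPM. The log2 difference was -0.95 ± 0.63 (edgeR adjusted p = 0.568) and fell to -0.019 ± 0.09 without that library. Stfa1 was far lower, with 2.75, 3.47 and 3.18 CPM in the Ly6C-high and 3.09, 3.88 and 7.16 CPM in the Ly6C-low libraries. These stand for between 52 and 135 estimated counts, divided with a gene that held between 20754 and 77932. The log2 difference of Stfa1 was -0.58 ± 0.30 (edgeR adjusted p = 0.403), and -0.15 ± 0.23 without Ly6C-low replicate 3.

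**Figure D1:**
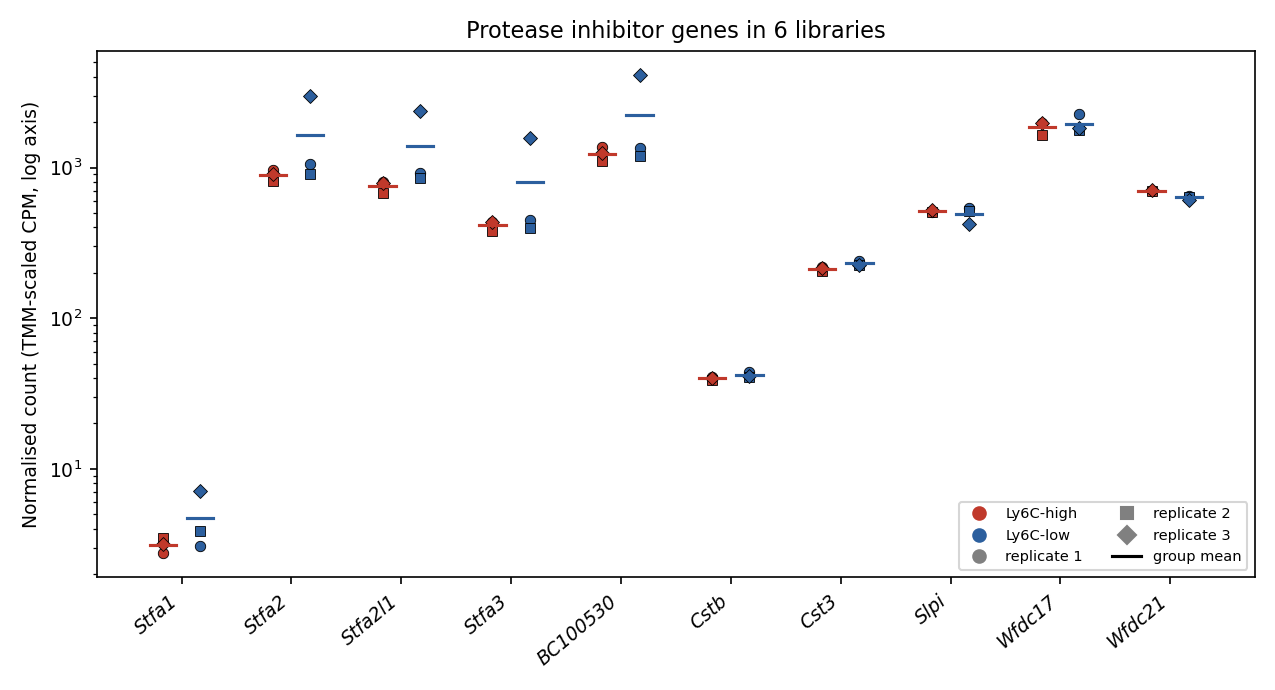
Normalised counts (TMM-scaled CPM, log axis) of the 10 genes in the 3 Ly6C-high (red) and 3 Ly6C-low (blue) libraries, with the shape giving the replicate number and the bar the group mean. For the 5 stefin A genes the diamond of Ly6C-low replicate 3 stands above all other points (4133 CPM for BC100530), while Cstb, Cst3, Slpi, Wfdc17 and Wfdc21 show no such point.

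The excess of the cluster in Ly6C-low replicate 3 differed in size between the members, from 1.85 times in Stfa1 to 3.51 times in Stfa3. Its ratio to the highest of the other 5 libraries was 3.02 for BC100530, 2.85 for Stfa2 and 2.61 for Stfa2l1. With the 4 other tested stefin A genes added, the summed CPM was 2.99 times the highest of the others. In TPM, which allows levels to be set side by side between genes, the 5 members summed to 14205, 12149 and 14121 in the Ly6C-high and 16083, 14689 and 49058 in the Ly6C-low libraries. That is 1.42%, 1.21% and 1.41% of all TPM in the Ly6C-high and 1.61%, 1.47% and 4.91% in the Ly6C-low libraries. As a share of estimated counts the sum was between 0.285% and 0.376% in the first 5 libraries and 1.22% in the last. The means of the summed CPM were 3313 ± 299.6 in Ly6C-high and 6064 ± 4352 in Ly6C-low cells (SD, n = 3 each), a ratio of 0.546. Without Ly6C-low replicate 3 the ratio was 0.932.

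The mix of stefins differed less between libraries than their sum did. Stfa2 made up between 28.0% and 29.1% of the summed TPM of the 5 members in the 6 libraries, and BC100530 between 23.3% and 25.8%. Stfa1 made up between 0.0483% and 0.0868%, with its lowest share in Ly6C-low replicate 3. Stfa2l1 made up between 27.9% and 32.8%, with its lowest share in Ly6C-low replicate 3. Stfa3 made up between 15.7% and 18.9%, with its highest share in that library. These shares describe TPM after kallisto's division of reads between the copies.

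**Figure D2:**
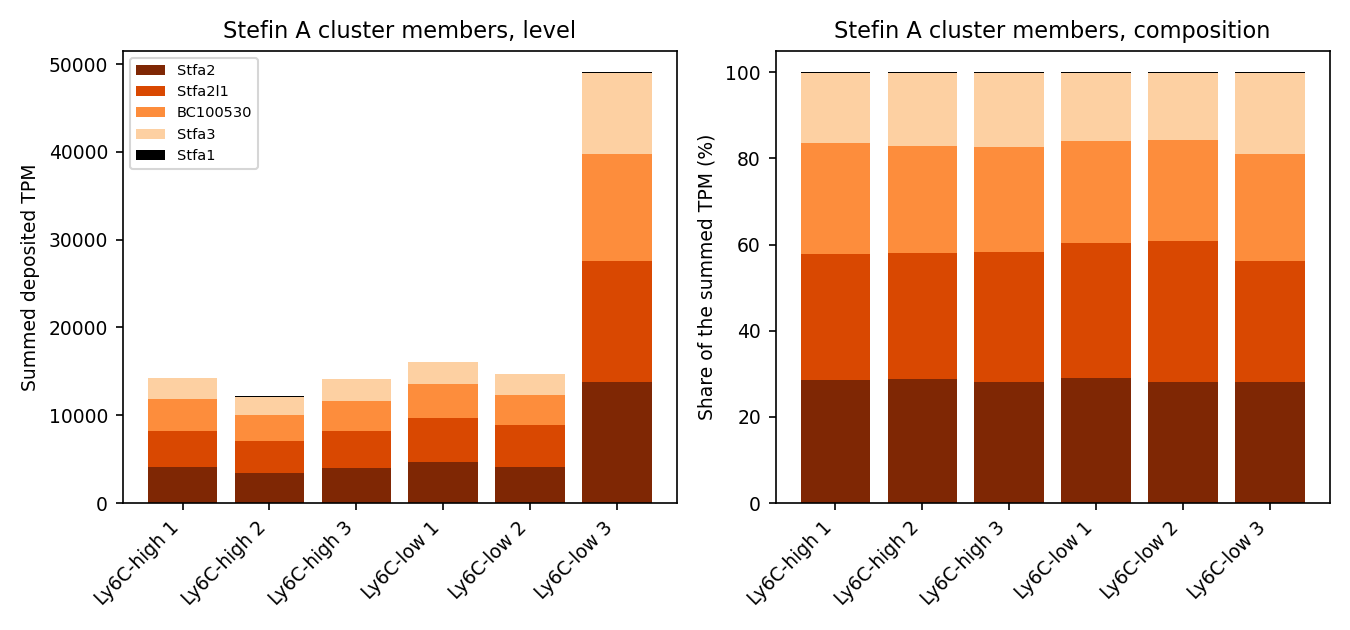
Summed deposited TPM (left) of the 5 stefin A cluster members in each library, and the share of each member in that sum (percent, right). The bar of Ly6C-low replicate 3 reaches 49058 TPM while the other 5 lie between 12149 and 16083 TPM, and the shares at the right differ less than the sums.

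The other tested genes of the cluster were also highest in Ly6C-low replicate 3. Of 9 listed stefin A genes outside the members, 6 were matched and 4 were tested, and none passed the threshold or an unadjusted p of 0.05 in edgeR, nor were any called by voom or, among the 3 given an adjusted p, by DESeq2. Their median log2 difference was -0.80, and -0.06 without Ly6C-low replicate 3, against -0.0045 and 0.0017 for all genes. Gm5483 had 649, 549 and 667 CPM in the Ly6C-high and 702, 633 and 2311 CPM in the Ly6C-low libraries, with a log2 difference of -0.97 ± 0.60 (edgeR adjusted p = 0.546), and -0.10 without Ly6C-low replicate 3. Gm5416, at a far lower level, had 4.92, 4.80 and 6.02 CPM against 4.99, 6.44 and 21.9 CPM, with a log2 difference of -1.07 ± 0.65 (edgeR adjusted p = 0.528), and -0.12 without Ly6C-low replicate 3. In both genes the last Ly6C-low library alone was high, at 3.29 and 3.39 times the highest of the others. Named after their values were seen, BC117090 reached 2.41 times and Csta1, with at most 24 estimated counts, 1.99 times.

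Stefin A genes led the genes that stood apart upward in that library. Of the 7261 genes with a mean of at least 5 CPM, 17 (0.234%) were at least 2-fold higher in Ly6C-low replicate 3 than in each of the other 5 libraries, and 7 of the 17 were stefin A genes, all within the first 9 places. Stfa1 (1.85 times) and Csta1 (1.99 times) had a mean under 5 CPM and were not among the 7261 genes. For each of the other libraries the count at 2-fold was between 0 and 5. At 1.5-fold it was 56 genes, against 2 to 12 in the other libraries. Another 18 genes were at least 2-fold lower in Ly6C-low replicate 3 than in each other library, against 2 to 9 such genes elsewhere, so the library stood apart in both directions. Among the remaining 10 genes, named here after their values were seen, were Fmo1, which encodes a flavin monooxygenase (2.80 times), and the immediate-early genes Nr4a1 (2.22 times) and Fosb (2.01 times). Nr4a1 had 15.7, 27.7 and 36.0 CPM in the Ly6C-high and 21.2, 28.8 and 79.9 CPM in the Ly6C-low libraries. The other 5 members lay at or below the highest of the other libraries, with ratios of 0.947 for Cst3, 0.939 for Cstb, 0.86 for Wfdc21, 0.808 for Wfdc17 and 0.79 for Slpi.

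**Figure D3:**
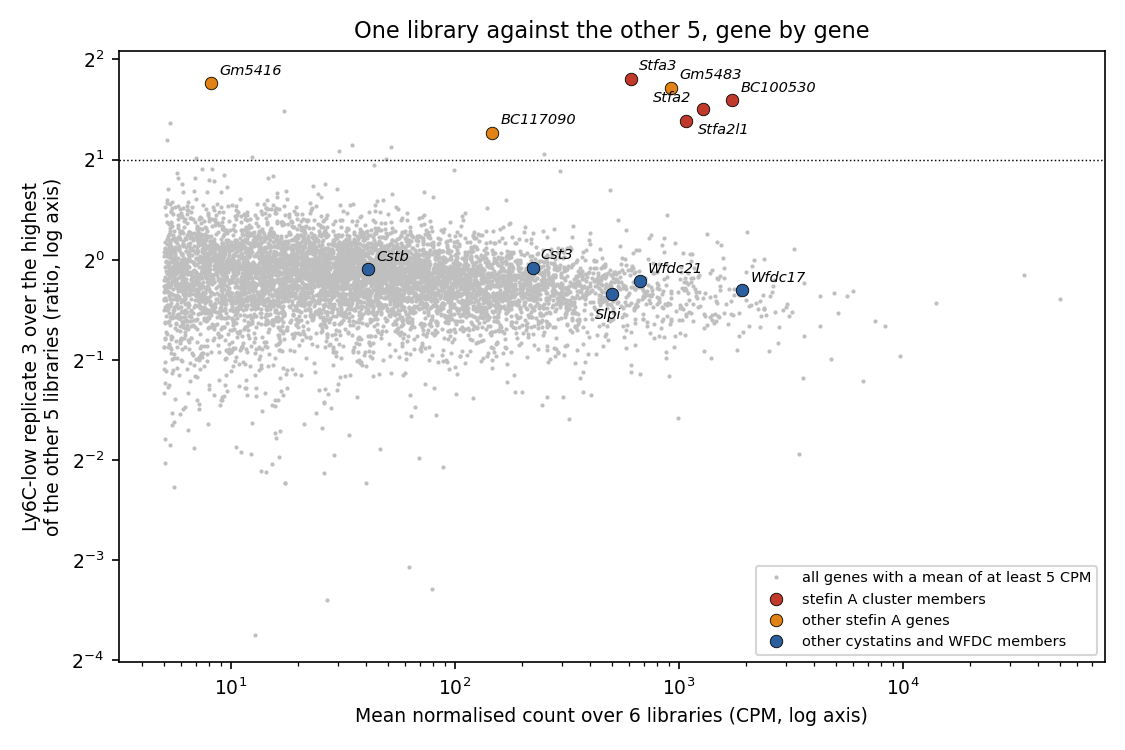
For each of 7261 genes, the CPM in Ly6C-low replicate 3 divided by the highest of the other 5 libraries (log axis), against the mean CPM (log axis), with the dotted line at 2-fold. The stefin A genes drawn (red and orange) lie above the line, between 2.41 for BC117090 and 3.51 for Stfa3. The other cystatin and WFDC members (blue) lie below a ratio of 1. Stfa1 (1.85 times) and Csta1 (1.99 times) had a mean under 5 CPM and are not drawn.

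Markers of other cells were read in the same libraries, because RNA of contaminating cells would enter these values. The summed TPM of no marker list was higher in Ly6C-low replicate 3 than in every other library, and its ratio to the highest of them lay between 0.18 and 0.995 over 11 lists. The basophil or mast cell list moved with the library in part. Its sum was 36.1, 20.4 and 28.8 TPM in the Ly6C-high and 65.4, 48.2 and 65.1 TPM in the Ly6C-low libraries, with Kit, a receptor of mast cells and progenitors, as its most abundant member (16.1 to 57.9 TPM) and no marker at 0 in all libraries. The 7 markers of that list other than Kit were each highest in Ly6C-low replicate 3, and together they had 3.21, 4.34 and 5.41 TPM against 7.47, 15.8 and 36.3 TPM. Mcpt8, a basophil protease, had 0.897, 1.35 and 1.16 TPM against 3.74, 6.96 and 15.2 TPM. The part of such cells in the stefin result was not tested, and marker sums do not measure how much stefin RNA they would bring.

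The neutrophil list summed to between 384224 and 387773 TPM in the Ly6C-high and between 348502 and 370633 TPM in the Ly6C-low libraries, with its lowest value in Ly6C-low replicate 3, and the primary granule gene Elane was at or under 0.516 TPM throughout. The monocyte or macrophage list summed to between 104 and 109 TPM against 116 to 135 TPM, with Csf1r leading (95.2 to 125 TPM) and C1qa and C1qb at 0. The eosinophil list summed to between 18.9 and 23.8 TPM against 37.9 to 42.2 TPM, with Siglecf leading (13.6 to 25.0 TPM) and Prg3 at 0. The erythroid list ranged from 685 to 2505 TPM with Hbb-bs leading (333 to 1192 TPM), the platelet list from 8.64 to 25.1 TPM with Pf4 leading (3.21 to 13.3 TPM), and the B cell list from 2.18 to 4.24 TPM with Cd79a leading (0.958 to 1.71 TPM). The T cell list ranged from 25.8 to 47.5 TPM, the NK cell list from 0.708 to 3.92 TPM and the dendritic cell list from 0.269 to 0.601 TPM. Most of the T cell sum was Cd3d (24.6 to 44.1 TPM), and every other gene of that list had at most 1.18 TPM. The epithelial or tumour list ranged from 1.95 to 5.36 TPM, with 3 of its 6 genes at 0 and most of the sum from Cdh1 (1.86 to 5.28 TPM). Mitochondrial genes took between 0.573% and 0.663% of the estimated counts in the other 5 libraries and 0.503% in Ly6C-low replicate 3. In such bulk RNA, fewer cells of a type and less RNA per cell cannot be told apart.

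Cystatins outside the cluster varied little between libraries. Cstb (chr10:78425669-78427622) had 40.9, 39.0 and 39.9 CPM in the Ly6C-high and 43.8, 40.7 and 41.1 CPM in the Ly6C-low libraries, ranges that met at their edge. Its log2 difference was -0.068 ± 0.087 with a 95% interval of -0.26 to 0.12 (edgeR adjusted p = 0.766), and -0.079 ± 0.092 without Ly6C-low replicate 3. Cst3 (chr2:148871722-148875692) had 217, 206 and 216 CPM in the Ly6C-high and 239, 227 and 226 CPM in the Ly6C-low libraries. All 3 Ly6C-low libraries were above all 3 Ly6C-high libraries, as for Stfa2l1 and 10.9% of all genes, but the difference was small, -0.12 ± 0.083 on the log2 scale with an interval of -0.30 to 0.067 (edgeR adjusted p = 0.564). Leaving out Ly6C-low replicate 3 gave -0.13 ± 0.08.

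WFDC transcripts were also abundant, and none of the 3 genes passed the test between the groups. Wfdc17 (chr11:83703991-83706268), which encodes a secreted WFDC protein described in activated macrophages, had 1986, 1634 and 1981 CPM in the Ly6C-high and 2263, 1775 and 1829 CPM in the Ly6C-low libraries. The groups overlapped, replicate 2 was the lowest in each, and the log2 difference was -0.067 ± 0.13 with an interval of -0.34 to 0.21 (edgeR adjusted p = 0.846). Without Ly6C-low replicate 3 it was -0.11 ± 0.12. Wfdc21 (chr11:83746940-83752642) had 697, 698 and 706 CPM in the Ly6C-high and 649, 641 and 608 CPM in the Ly6C-low libraries. It was the only member whose Ly6C-high libraries all lay above the Ly6C-low ones, as did 1172 of all genes (10.3%). The difference was 0.15 ± 0.09 on the log2 scale with an interval of -0.049 to 0.34 (edgeR adjusted p = 0.488), and 0.12 ± 0.075 without Ly6C-low replicate 3.

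Slpi (chr2:164354070-164389095), the inhibitor of elastase and cathepsin G, had 505, 508 and 523 CPM in the Ly6C-high and 537, 517 and 424 CPM in the Ly6C-low libraries. Ly6C-low replicate 3, the library with the most stefin A transcripts, was the lowest in Slpi, and the other 2 Ly6C-low libraries lay within or above the Ly6C-high range. The log2 difference was 0.054 ± 0.11 with an interval of -0.18 to 0.29 (edgeR adjusted p = 0.850), and it turned to -0.041 ± 0.077 without that library and to -0.046 with library size alone. Of its annotated transcripts, 2 held nearly all of its counts. The longer had 9162, 8931 and 10289 estimated counts in the Ly6C-high and 10413, 9450.1 and 7206 in the Ly6C-low libraries, and the shorter had 389, 589.8 and 386 against 347, 428 and 791. The shorter transcript was thus highest where the longer was lowest, in Ly6C-low replicate 3, as kallisto divided the reads. The 3 WFDC genes together took 1.10%, 0.996% and 1.15% of TPM in the Ly6C-high and 1.24%, 1.08% and 1.10% in the Ly6C-low libraries.

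**Figure D4:**
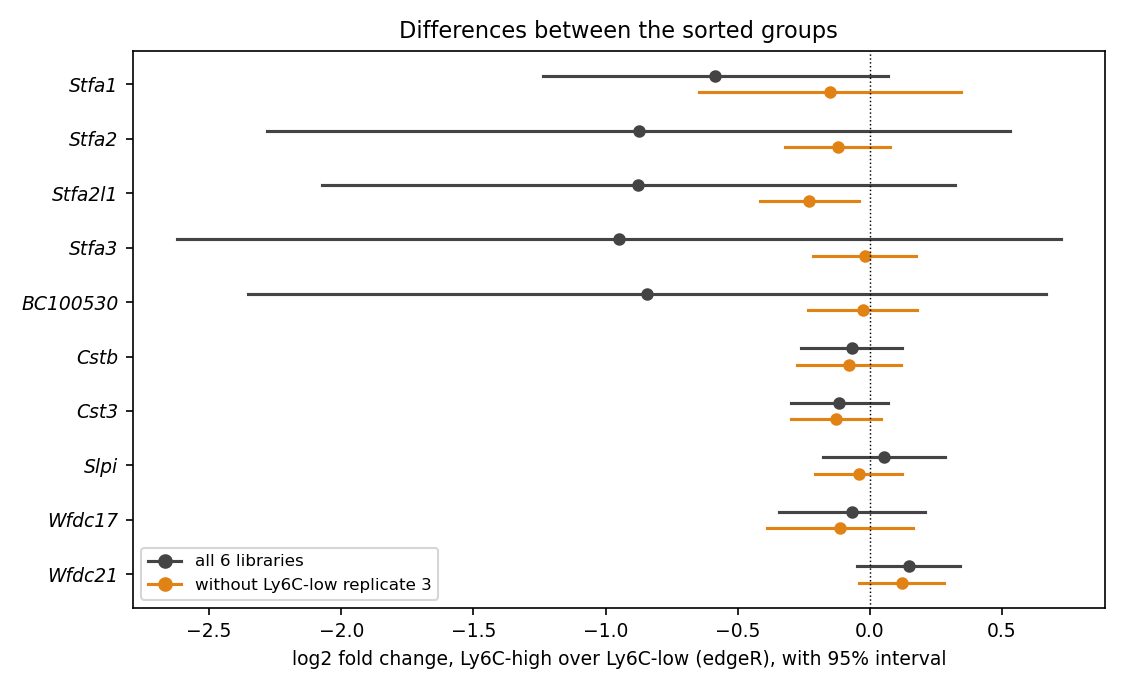
Log2 differences of the 10 genes, Ly6C-high over Ly6C-low, from edgeR with 95% intervals, over all 6 libraries (black) and without Ly6C-low replicate 3 (orange). The black stefin A intervals are wide (-2.62 to 0.72 for Stfa3), and the orange stefin A points lie nearer to 0 than the black ones. The orange interval of Stfa2l1 (-0.42 to -0.041) does not reach 0. Black and orange lie close together for the other 5 genes, although Slpi turns from 0.054 to -0.041.

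By level in TPM, averaged over the 6 libraries, the order was Wfdc17 (6803), Stfa2l1 (5923), Stfa2 (5693), BC100530 (4932), Stfa3 (3489.7), Wfdc21 (3400.0), Slpi (899), Cst3 (384), Cstb (119) and Stfa1 (12.3). From Wfdc17 to Wfdc21 the range over libraries of each gene overlapped that of the next, so these neighbours were not separate by range over all 6 libraries. Within libraries, however, Stfa2 lay above BC100530 and BC100530 above Stfa3 in 6 of 6, and Wfdc17 above Stfa2l1 and Stfa2l1 above Stfa2 in 5 of 6. From Wfdc21 down to Stfa1 each gene lay above the next in every library with no overlap of ranges. Without Ly6C-low replicate 3 the means were 6795 TPM for Wfdc17, 4373 for Stfa2l1, 4063 for Stfa2, 3469 for BC100530, 3427 for Wfdc21 and 2335 for Stfa3. Wfdc17 then stood above Stfa2l1 with no overlap, and Stfa3 (at most 2548 TPM) lay below both Wfdc21 and BC100530 (at least 3015 TPM) with no overlap. Stfa2l1, Stfa2, BC100530 and Wfdc21 still overlapped, each with the next. The order of Stfa2l1, Stfa2 and BC100530 also depends on how shared reads were divided. It rests on the effective lengths used for TPM as well, 194.1, 240.1 and 380.3 bases for their main transcripts. In estimated counts the order was the reverse in every library, with 15116, 18336 and 25900 in Ly6C-high replicate 1.

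None of the tested genes in the lists of proteases passed the threshold either. Of 11 listed cysteine proteases 8 were tested, 3 with a difference above 0 and 5 below, and their median log2 difference was -0.042 (-0.11 without Ly6C-low replicate 3). None passed in edgeR, voom or DESeq2, which gave 7 of them an adjusted p. At an unadjusted edgeR p of 0.05 the count was 1 of the 8, against 14.3% of all genes. Ctsh, the aminopeptidase cathepsin H, had 61.6, 66.9 and 61.1 CPM in the Ly6C-high and 55.6, 55.8 and 52.2 CPM in the Ly6C-low libraries. All Ly6C-high libraries lay above all Ly6C-low libraries, as in 10.3% of all genes. Its log2 difference was 0.21 ± 0.087 (edgeR adjusted p = 0.311), and 0.18 without Ly6C-low replicate 3. Ctss, cathepsin S, had 46.8, 38.7 and 42.2 CPM against 53.7, 43.5 and 52.2 CPM, with overlap and a log2 difference of -0.23 ± 0.11 (edgeR adjusted p = 0.374), and -0.19 without Ly6C-low replicate 3.

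Of 8 genes listed with the granule serine proteases 6 were tested, 2 above 0 and 4 below, with a median of -0.26 (-0.16 without Ly6C-low replicate 3). The list also held Plaur, the urokinase receptor, and Mpo, a granule peroxidase, which are not proteases. Mpo was among the 4 below 0, with a log2 difference of -0.39 (-0.42 without Ly6C-low replicate 3). Elane and Ctsg, which encode the elastase and cathepsin G that Slpi blocks, were too low to be tested. Each had at most 7 estimated counts in a library. None of the 6 tested genes passed in edgeR, voom or DESeq2, which gave 3 of them an adjusted p. At an unadjusted edgeR p of 0.05 the count was 2 of the 6, against 14.3% of all genes. Prss34, a protease of mast cells and basophils that is also in the basophil marker list, had 0.423, 1.07 and 0.783 CPM in the Ly6C-high and 1.35, 2.15 and 3.45 CPM in the Ly6C-low libraries, with a log2 difference of -1.60 ± 0.42 (edgeR adjusted p = 0.192), and -1.19 without Ly6C-low replicate 3. It was highest in Ly6C-low replicate 3, like 6 other markers of that list, whose part in its difference was not tested. Plau, which encodes urokinase, had 10.9, 9.92 and 7.54 CPM against 7.44, 7.60 and 6.26 CPM, with a log2 difference of 0.41 ± 0.17 (edgeR adjusted p = 0.315), and 0.33 without Ly6C-low replicate 3.

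Other protease inhibitors mostly lay on the Ly6C-high side. Of 29 listed genes 11 were tested, 9 with a difference above 0 and 2 below (5607 above 0 among all 11406 genes), with a median of 0.32 (0.35 without Ly6C-low replicate 3). None passed in edgeR or voom, 4 had an unadjusted edgeR p under 0.05 (14.3% of all genes), the Ly6C-high libraries lay above all Ly6C-low libraries in 4 (10.3% of all genes), and DESeq2 called 2 of the 7 to which it gave an adjusted p, Serpinb1a and Reck, against 126 of 6762 genes (1.86%). Serpinb1a, which encodes an inhibitor of elastase and cathepsin G, had 423, 448 and 414 CPM in the Ly6C-high and 317, 356 and 281 CPM in the Ly6C-low libraries, with a log2 difference of 0.43 ± 0.10 (edgeR adjusted p = 0.189), and 0.35 without Ly6C-low replicate 3. Reck, a membrane-anchored inhibitor of matrix metalloproteinases, had 52.8, 59.5 and 57.3 CPM against 39.5, 47.0 and 38.8 CPM, with a log2 difference of 0.44 ± 0.10 (edgeR adjusted p = 0.172), and 0.39 without Ly6C-low replicate 3. Of 23 other listed cystatin, WFDC and related genes only 4 were tested, with a median of -0.06 (-0.076 without Ly6C-low replicate 3), and none passed in edgeR, voom or DESeq2, which gave 1 of them an adjusted p. The count at an unadjusted edgeR p of 0.05 was also 0. Spint1, a membrane-bound serine protease inhibitor, had a log2 difference of -0.81 ± 0.64 (edgeR adjusted p = 0.615; -0.99 without Ly6C-low replicate 3) at a mean of 1.03 ± 0.771 CPM in Ly6C-high and 1.80 ± 1.22 CPM in Ly6C-low cells, and Wfdc18 had -0.12 ± 0.18 (edgeR adjusted p = 0.805; -0.078 without that library) at 4.15 ± 0.154 and 4.51 ± 0.602 CPM (SD, n = 3 each).

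**Figure D5:**
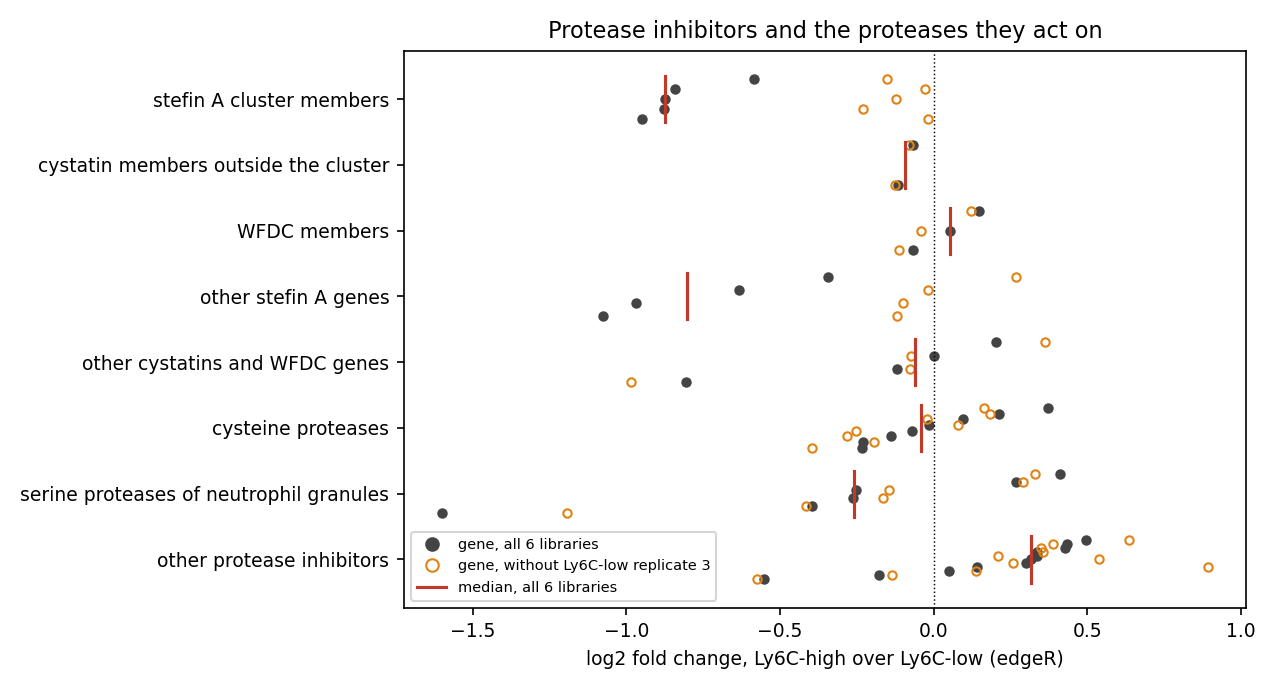
Log2 differences, Ly6C-high over Ly6C-low (edgeR), of every tested gene in 8 lists of inhibitors and proteases, over all 6 libraries (filled) and without Ly6C-low replicate 3 (open), with a red bar at the median of the filled points. Both stefin A lists sit at medians of -0.87 and -0.80 with all libraries and move close to 0 without that library, while the points of the other protease inhibitors mostly stay on the right, around a median of 0.32.

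Among 6943 genes ranked, those whose levels followed the summed stefins most closely over the 6 libraries were Ccrl2, Rpl22l1 and Stk25. Their Pearson r of log2 CPM was 0.995, 0.990 and 0.990. The ranking left out the members, pseudogenes and genes with only a predicted or clone name. Gm5483, Gm5416 and BC117090 of the cluster were therefore not ranked. Ccrl2, an atypical receptor that binds chemerin, had 85.5, 74.4 and 86.7 CPM in the Ly6C-high and 91.9, 85.1 and 171 CPM in the Ly6C-low libraries. Rpl22l1, a ribosomal protein relative, had 6.08, 5.65 and 6.12 CPM against 6.34, 6.44 and 10.3 CPM. Stk25, a protein kinase, had 9.89, 8.96 and 9.25 CPM against 10.2, 9.85 and 14.8 CPM. In each of them Ly6C-low replicate 3 was the highest library by a wide margin. Without it r was 0.941 for Ccrl2, 0.731 for Rpl22l1 and 0.902 for Stk25. These values describe the 6 libraries, which share their sort and processing, and each r is lower without 1 of them.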

How the data were processed

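Per the labels' protocols, poly(A) RNA of 6 libraries was sequenced from 1 end for 75 cycles. Per the submitters' processing notes, the authors used kallisto and build GRCm39. Neither a version nor the index nor the strand setting is given in the sources used here. Reads of genes that overlap on opposite strands therefore cannot be told apart. The deposited tables give estimated counts, TPM and the effective length of 117486 transcripts per library, per the file headers. Transcripts were matched to genes by identifier with GENCODE M21 (99.04% of transcripts, between 99.747% and 99.767% of the estimated counts). That annotation is on GRCm38, so coordinates are its own and no sequence was read by position from the authors' build.

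Estimated counts were summed per gene and rounded. The 11406 genes kept by filterByExpr were tested with edgeR 4.0.16 (R 4.3.3), TMM scaling and a quasi-likelihood F test on group alone, a step first tested on simulated data. Adjusted p-values are Benjamini-Hochberg over all genes tested, with a threshold of 0.05, and intervals are 95%. The common biological coefficient of variation was 13.7%. Counts of library pairs differed well beyond sampling noise (chi-square per gene 14.3 to 69.2), so none was a copy. Alternatives used DESeq2 1.42.0 and limma 3.58.1. Coding sequences were aligned with mafft 7.526, and promoter sequences are RefSeq's. Levels between genes were compared in deposited TPM.

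The members and lists were chosen with earlier results of these data known. Genes named are the members, the 2 of each companion list with the smallest p, the most abundant gene of each marker list with at least 3 tested genes, the 3 ranked genes most like the summed stefins, Ly6c1 and Ly6c2. Others were named after their values were seen. The following counts were added after seeing the data: the genes 2-fold higher in 1 library by deposited TPM and by library size alone.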

Additional observations from a re-analysis of the deposited data

How the results depend on the processing

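No gene of the 10 was called under the alternatives run, though the DESeq2 Wald test gave Stfa1 no adjusted p. They were the replicate block, DESeq2 size factors, library size alone, no filter, a mean count of at least 10, the DESeq2 Wald test, limma voom, length-scaled TPM and each library left out. Over all genes the edgeR count of 4 became 61 (0.535%) with the replicate block, 8 with library size alone, 439 with no filter, 126 with the DESeq2 Wald test and 2 with length-scaled TPM, and between 2 and 22 with 1 library left out. The cause was not tested. The ratio of the summed stefins, 0.546, lay between 0.446 and 0.932 with 1 library left out, and the 0.932 came without Ly6C-low replicate 3. It was 0.507 by deposited TPM, 0.495 by library size alone, 0.55 with DESeq2 size factors and 0.543 with the other tested stefin A genes. Slpi reversed to -0.046 with library size alone and to -0.041 without Ly6C-low replicate 3, and lay between -0.041 and 0.12 with 1 library left out. Wfdc17 reversed to 0.018 without Ly6C-high replicate 2 and to 0.046 without Ly6C-low replicate 1, and lay between -0.13 and 0.046 with 1 library left out. The genes at least 2-fold higher in Ly6C-low replicate 3 numbered 17, and 20 by deposited TPM and 23 by library size alone.

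The replicate numbers are not said to pair the libraries. The deviations of same-numbered libraries correlated at 0.237, -0.0372 and 0.239, and Ly6C-high replicate 2 correlated more with Ly6C-low replicate 1 (0.11) than with its own number. With the replicate block 0 of the 10 genes passed and 1 had an unadjusted p under 0.05, Stfa1 (0.0448), against 2056 of all 11406 genes (18.0%). With all 6 libraries the stefin A intervals are wide (-2.62 to 0.72 on the log2 scale for Stfa3), and without Ly6C-low replicate 3 they are narrower (-0.21 to 0.17 for Stfa3, -0.23 to 0.18 for BC100530, -0.65 to 0.35 for Stfa1). Reads shared between near-identical copies limit Stfa1, Stfa2, Stfa2l1 and BC100530.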
